A study of Caenorhabditis elegans with 2 samples.

Results

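The C. elegans genome annotation names 62 nuclear protein-coding genes as ubiquitin (ubq), ubiquitin-activating (uba), ubiquitin-conjugating (ubc), proteasome (pas, pbs, rpn, rpt) or CDC-48 genes, of 19973 nuclear protein-coding genes in all. The rule that chose them uses gene names and no measured value, though it was set with earlier results of these data known. They comprised 2 ubiquitin genes, 3 uba genes and 21 ubc genes, which make up the 26 ubiquitin and enzyme genes, then 14 subunits of the proteasome core, 19 subunits of its cap and 3 CDC-48 genes. For each gene the strongest chromatin immunoprecipitation (ChIP-seq) summit was taken from 500 bp upstream to 200 bp downstream of its start, here called its promoter window.

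The ChIP-seq was made with an anti-GFP antibody on sonicated chromatin of whole hermaphrodite worms of strain xtl1186, a transgenic line in which ZNF-207, the zinc finger protein of gene B0035.1 (znf-207), carries GFP and FLAG at its C-terminus. The worms were young adults, 50 hours after synchronization as larvae starved at the L1 stage following bleaching. The data form 1 group of 2 biological replicates, without a control analysed here, so a summit is the authors' call and no level is set against untagged worms. Whole animals mix all tissues, and which cells gave a summit cannot be told.

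The authors' thresholded list held 750 peaks with signals of at least 88.6 (median 114). They were exactly the 750 peaks of highest signal in the pooled list, so a gene could have a thresholded summit with unlike ranks in the replicates. The unthresholded lists hold peaks and background, with 30000 peaks for the pooled replicates, 30000 for replicate 1 and 25036 for replicate 2. Signal is the authors' own value for a peak. Its scale differs from list to list, so genes were compared between lists by rank, where rank 1 is the strongest peak. The lists carry no read counts, so the depth is unknown. Both replicates went into the pooled and thresholded lists, which are therefore no independent check of them.

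Ubiquitin is a small protein that is attached to other proteins as a tag. An activating enzyme (E1) charges it, a conjugating enzyme (E2) carries it, and a ligase (E3) directs it to the target. Proteins tagged with chains of ubiquitin are unfolded and cut by the 26S proteasome, whose core is a barrel of alpha (pas) and beta (pbs) rings with the proteases inside, and whose cap holds the ATPases (rpt) and the subunits that bind and remove ubiquitin (rpn). CDC-48, called p97 or VCP in mammals, is an ATPase that pulls tagged proteins out of complexes and membranes. In worms the proteasome is needed throughout the body, the germ line and embryos included. The activities given below for single subunits and enzymes are those known from their yeast or mammalian counterparts.

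A promoter summit of the thresholded list was found for 5 of the 62 genes (8.06%), beside 1.64% of all nuclear protein-coding genes (327 of 19973). The 5 were cdc-48.1, ubc-6, rpn-3, ubq-2 and uba-2, in order of signal. They stand in 3 of the groups, since 3 of the 26 ubiquitin and enzyme genes (11.5%), none of the 14 core subunits, 1 of the 19 cap subunits (5.26%) and 1 of the 3 CDC-48 genes had one. These counts describe the lists, and no test was made of them. The count rests on the window, since with a window of 200 bp before and 100 bp after the start it was 1 of 62, cdc-48.1, beside 0.781% of all genes. It was 3, cdc-48.1, ubc-6 and rpn-3, where a summit counted only for the gene with the nearest start (1.33% of all genes).

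The sequences under the summits are shown for 4 of these 5 genes and, for contrast, for 3 genes with weaker summits: the strongest gene below the threshold, rpn-11, the strongest core subunit, pbs-1, and cdc-48.2, the sister gene of cdc-48.1. Each runs 5′ to 3′ on the strand of the gene over 101 bp centred on the summit, from the RefSeq WBcel235 (ce11) genome. Capitals mark matches on either strand to the short words named in the paragraphs on words that follow, each searched on both strands.
ubq-2: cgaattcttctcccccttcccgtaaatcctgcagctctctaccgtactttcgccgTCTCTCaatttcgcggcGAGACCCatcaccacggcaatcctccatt
ubc-6: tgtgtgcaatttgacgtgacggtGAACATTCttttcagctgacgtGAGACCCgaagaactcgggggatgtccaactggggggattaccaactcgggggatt
rpn-3: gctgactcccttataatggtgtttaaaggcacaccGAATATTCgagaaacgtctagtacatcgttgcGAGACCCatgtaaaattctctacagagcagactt
cdc-48.1: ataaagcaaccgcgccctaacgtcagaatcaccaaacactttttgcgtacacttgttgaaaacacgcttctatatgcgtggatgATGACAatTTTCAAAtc
rpn-11: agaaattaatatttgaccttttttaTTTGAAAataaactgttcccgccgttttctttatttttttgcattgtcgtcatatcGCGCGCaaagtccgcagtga
pbs-1: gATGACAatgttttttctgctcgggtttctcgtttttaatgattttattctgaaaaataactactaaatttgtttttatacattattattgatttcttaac
cdc-48.2: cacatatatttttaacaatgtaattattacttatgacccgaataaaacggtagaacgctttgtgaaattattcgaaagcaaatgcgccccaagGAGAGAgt

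The places are chrIII:12978951-12979051 (minus strand) for ubq-2, chrII:7478854-7478954 (plus) for ubc-6 and chrIII:8447099-8447199 (plus) for rpn-3. They are chrII:10563512-10563612 (minus) for cdc-48.1, chrII:4044551-4044651 (minus) for rpn-11, chrIV:1709791-1709891 (minus) for pbs-1 and chrII:8138091-8138191 (plus) for cdc-48.2. All 7 summits lie outside protein-coding genes.

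The word GAGACCC occurred at 3 of the 5 thresholded summits, in the same strand as the gene each time. These 3 summits also lay in the windows of genes on the other strand (aka-1, hsp-110 and frg-1), so the word ran against the strand of those neighbours. It began 5 bp before the summit of ubc-6 (-5), 17 bp after that of rpn-3 and 22 bp after that of ubq-2. This word was added after the letters were read, and its count at these genes reflects how it was picked. Over all genes it was present at 13 of 265 thresholded promoter summits (4.91%) and at 94 of 4699 pooled ones (2%). No other of the 37 pooled summits held it, and cdc-48.1, the strongest, was among those without it.

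The other words were met at shares that can be read beside those of all promoter summits of the same length. GAGAGA was found at 6 of the 37 genes' pooled summits (16.2%, all genes 10.7%) and TTTCAAA also at 6 (16.2%, all genes 12%). The word TATCAT, counted together with its variant TGTCAT, occurred at 5 (13.5%, all genes 10.4%) and GAANNTTC, the core of the heat shock element, at 3 (8.11%, all genes 6.02%). Both ubc-6 and rpn-3 had GAANNTTC upstream of their GAGACCC. The word GCGCGC was found at 5 (13.5%, all genes 3.32%) and CACGTG at none (all genes 2.58%). Words can overlap by a few letters, since GAGAGA and the word chosen later share their first letters, and so do the end of the heat shock word and the start of TTTCAAA. The median GC content of the windows was 42.6% at the 5 thresholded summits, below the 48.5% of all thresholded promoter summits, and 35.6% at the 37 pooled ones (all genes 37.6%).

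**Figure D1:**
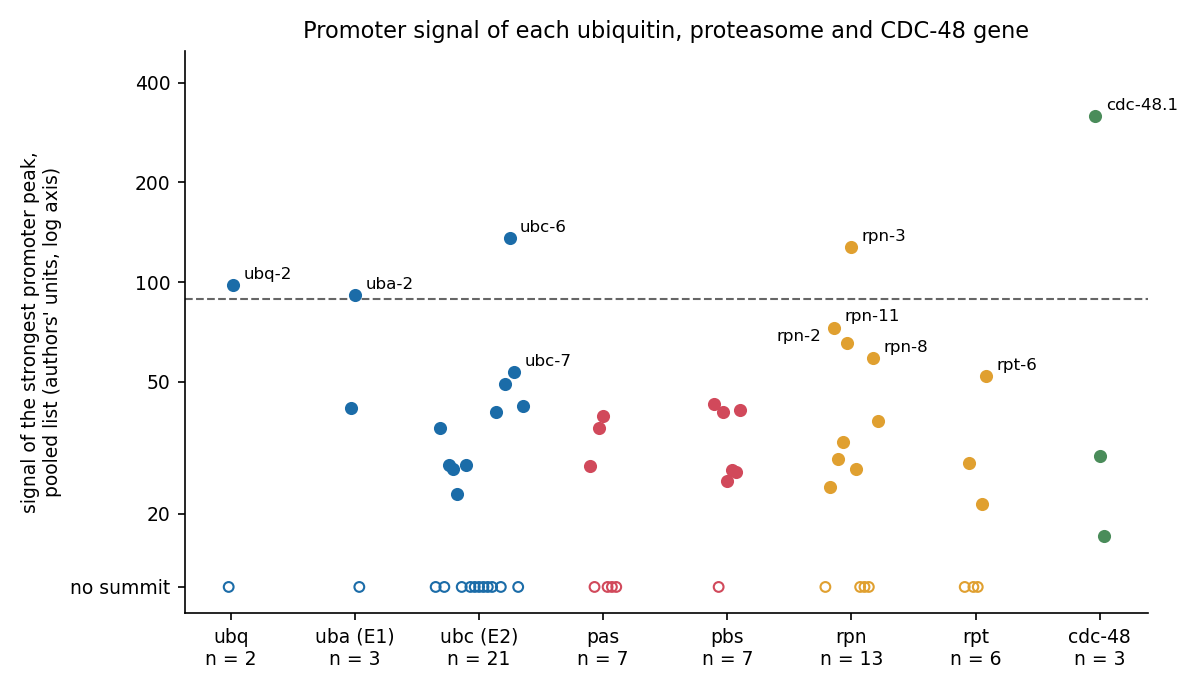
Signal of the strongest pooled promoter peak (authors' units, log axis) for each of the 62 genes, by name class, with open circles for genes that had no pooled summit in the window. The dashed line is the lowest signal of the thresholded list, 88.6, and 5 genes stand above it, with cdc-48.1 at 317 far above the others.

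Of the ubiquitin genes, ubq-2 had a thresholded summit and ubq-1 did not. The gene ubq-2 (WBGene00006728, chrIII:12977963-12978523, minus strand) encodes ubiquitin fused to a ribosomal protein of the large subunit, and its peak spanned chrIII:12978771-12979230. Its summit, 478 bp upstream of the start (-478), had a pooled signal of 98.1 and rank 589. The signal was 71.9 in replicate 1 (rank 432) and 24.8 in replicate 2 (rank 2602), so the rank was much better in the first. The summit stood at the same base in both replicates. It lay in the promoter window of frg-1 as well, whose start was nearer, at 161 bp.

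The other ubiquitin gene, ubq-1, encodes polyubiquitin, a chain of ubiquitin repeats that is cut into single units. It had no pooled summit in its window. Its weak summits in the replicates ranked 17367 and 13162 and lay 330 bp apart, on either side of the start.

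Among the activating enzymes, uba-2 had a thresholded summit. It encodes a subunit of the E1 for SUMO, a ubiquitin-like tag (WBGene00006700, chrI:12741588-12749562, plus strand). The peak, chrI:12741075-12741534, had its summit 283 bp upstream (-283), with a pooled signal of 91.2 and rank 702, close to the limit of the thresholded list. The signal was 45.4 in replicate 1 (rank 1428) and 41.7 in replicate 2 (rank 556). The summit stood 30 bp from the start of vps-25, a gene for an ESCRT-II subunit of the endosomal sorting machinery, which is the nearer gene.

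The E1 of ubiquitin itself, uba-1, had a pooled signal of 41.6 (rank 4766) at -212. Its strongest summits in the replicates ranked 5450 and 2819 and lay 333 bp apart, on either side of the start. The replicate 1 summit at the place of the pooled one ranked 6650. The E1 of the tag UFM1, uba-5, had no summit in any list. The 3 E1 genes thus ran from a thresholded summit to none.

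Of the 21 ubc genes, 1 had a thresholded summit (4.76%, all genes 1.64%) and 10 had a pooled one (47.6%, all genes 26.2%). The gene with the thresholded summit was ubc-6 (WBGene00006703, chrII:7479187-7480713, plus strand), the counterpart of a yeast E2 that sits in the endoplasmic reticulum membrane and marks misfolded proteins for destruction. Its peak, chrII:7478674-7479133, had a pooled signal of 135.6 (rank 224), with 93.8 in replicate 1 (rank 198) and 46.01 in replicate 2 (rank 410). The summits stood 283 bp upstream in the pooled list (-283), and at -245 and -288 in the replicates. The peak lay in the window of aka-1 too, on the other strand, while the start of ubc-6 was the nearer.

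The next E2 gene by signal was ubc-7. Its pooled signal was 53.4 (rank 2518) at -384, and it ranked 5008 in replicate 1 and 2345 in replicate 2. Then came ubc-3, the counterpart of the cell-cycle enzyme CDC34, with a pooled signal of 49.2 (rank 3093). It ranked 1132 in replicate 1 and had no summit in its window in replicate 2.

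Both E2 genes for the ubiquitin-like tags had pooled summits of middling rank. The SUMO enzyme ubc-9 had rank 4585, and the NEDD8 enzyme ubc-12 had rank 6732. The remaining 5 with a pooled summit, ubc-14, ubc-15, ubc-16, ubc-18 and ubc-25, had ranks from 5079 to 18417. The 11 ubc genes without a pooled summit were ubc-1, ubc-8, ubc-13, ubc-17, ubc-19, ubc-20, ubc-21, ubc-22, ubc-23, ubc-24 and ubc-26. Of these ubc-1, the counterpart of yeast RAD6, had a summit in replicate 1 (rank 4048), and the other 10 had none in any list. They include ubc-13, the E2 that builds the signalling chains linked through a particular lysine.

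The X chromosome carried 4 of the 62 genes, ubc-17, ubc-21, ubc-22 and ubc-23, and none had a summit in any list. Of all X-linked protein-coding genes 63.8% had no summit in any list either (1742 of 2731), and 24.4% had a pooled promoter summit (665 of 2731).

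None of the 14 core subunits had a thresholded summit (all genes 1.64%), and 9 had a pooled one (64.3%, all genes 26.2%). With 14 genes a count of 0 lies near the thresholded share of all genes. The pooled signals of these 9 fell between 25.2 and 42.9, all under the 88.6 of the thresholded list, with ranks from 4370 to 15387. The strongest was pbs-1, the beta subunit with caspase-like activity, with a signal of 42.9 at -96. It ranked 3437 in replicate 1 and had no summit in its window in replicate 2, and its summit fell in the window of K08D12.3 too.

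Other core genes followed closely. The signals were 41.1 for pbs-7 (rank 4890), 40.4 for pbs-3 (rank 5103) and 39.5 for pas-4 (rank 5439), the strongest alpha subunit. The subunit with the chymotrypsin-like site, pbs-5, had 27.0 (rank 13411) and was found in replicate 2 (rank 3375) and not in replicate 1. By ring, 6 of the 7 beta genes and 3 of the 7 alpha genes had a pooled summit (all genes 26.2%). In replicate 1 it was 4 of 7 in each ring (all genes 26%). In replicate 2 it was 5 of the 7 beta and 2 of the 7 alpha genes (all genes 21.6%). A summit in both replicates was found for 3 beta genes and 1 alpha gene (all genes 13.2%). The core genes with no pooled summit were pas-2, pas-5, pas-6, pas-7 and pbs-2, the last being the subunit with the trypsin-like site. Of these pas-2 and pas-5 had summits low in replicate 1 (ranks 25413 and 27023).

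Among the 19 cap subunits rpn-3, a structural subunit of the lid, had the only thresholded summit (WBGene00004460, chrIII:8447353-8449346, plus strand). Its peak, chrIII:8446919-8447378, had a pooled signal of 127.4 (rank 268). The signal was 76.6 in replicate 1 (rank 346) and 50.6 in replicate 2 (rank 299). The summits lay at -204 in the pooled list and at -189 and -224 in the replicates. The summit also fell in the window of hsp-110, which encodes a chaperone of the Hsp110 family, on the other strand.

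Below the threshold the strongest of the 62 genes was rpn-11, whose product is the protease that cuts ubiquitin chains off at the proteasome. Its pooled signal was 72.8 (rank 1201) at -55, and its ranks in the replicates, 1566 and 1630, were close. Of the 62 genes uba-2, at 91.2 and rank 702, was the last inside the thresholded list, which ends at rank 750, and rpn-11 was the next gene after it.

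The scaffold subunit rpn-2 had 65.6 (rank 1537) at -399, with rank 1264 in replicate 1 and no summit within its window in replicate 2, where the strongest summit within 200 bp of the pooled one ranked 2583. The partner of rpn-11 in the lid, rpn-8, had 58.8 (rank 1998), with ranks of 1642 and 8541. Of the ATPases, rpt-6 was strongest with 52.1 (rank 2680) at -424, and ranks of 1412 and 9900. These genes ranked better in replicate 1.

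The other cap genes with a pooled summit had lower signals. They were 38.1 for rpn-9, 32.9 for the ubiquitin receptor rpn-13, 29.3 for rpn-12, 28.4 for rpt-2, 27.3 for rpn-5, 24.1 for the ubiquitin receptor rpn-10 and 21.3 for rpt-5. The genes with no pooled summit were rpn-1, rpn-6.1, rpn-6.2, rpn-7, rpt-1, rpt-3 and rpt-4. Of these rpn-1, the second scaffold subunit, ranked 9384 in replicate 1, where rpn-6.2 (rank 26754) and rpt-1 (rank 25401) also had weak summits. A pooled summit was found for 9 of the 13 rpn genes and 3 of the 6 rpt genes (all genes 26.2%).

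The 3 CDC-48 genes all had a pooled summit, with signals from 17.1 to 317. The gene cdc-48.1 (WBGene00007352, chrII:10560036-10563407, minus strand) had the strongest summit of the 62 genes, and its peak was chrII:10563433-10563692. Its pooled signal was 317 (rank 32, and rank 15 among nuclear peaks), the 5th best promoter summit of all 19973 genes. The signal was 188.9 in replicate 1 (rank 41) and 131.4 in replicate 2 (rank 32).

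The summits of cdc-48.1 lay at -155 in the pooled list and at -149 and -177 in the replicates. No other protein-coding gene's window held the pooled summit, and no protein-coding gene began on the other strand within 1000 bp upstream. It was the sole one of the 5 thresholded genes for which that was so.

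The sister gene cdc-48.2, whose product is a p97 counterpart too, had a pooled signal of 29.8 (rank 10771) at -355. It ranked 6179 in replicate 1 and had no summit in its window in replicate 2. The third gene, cdc-48.3, had 17.1 (rank 28650), near the end of the list, at a summit in a coding exon of K04G2.4, and ranked 16501 in replicate 1 with none in replicate 2. The summits of the pair cdc-48.1 and cdc-48.2 shared none of the searched words.

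**Figure D2:**
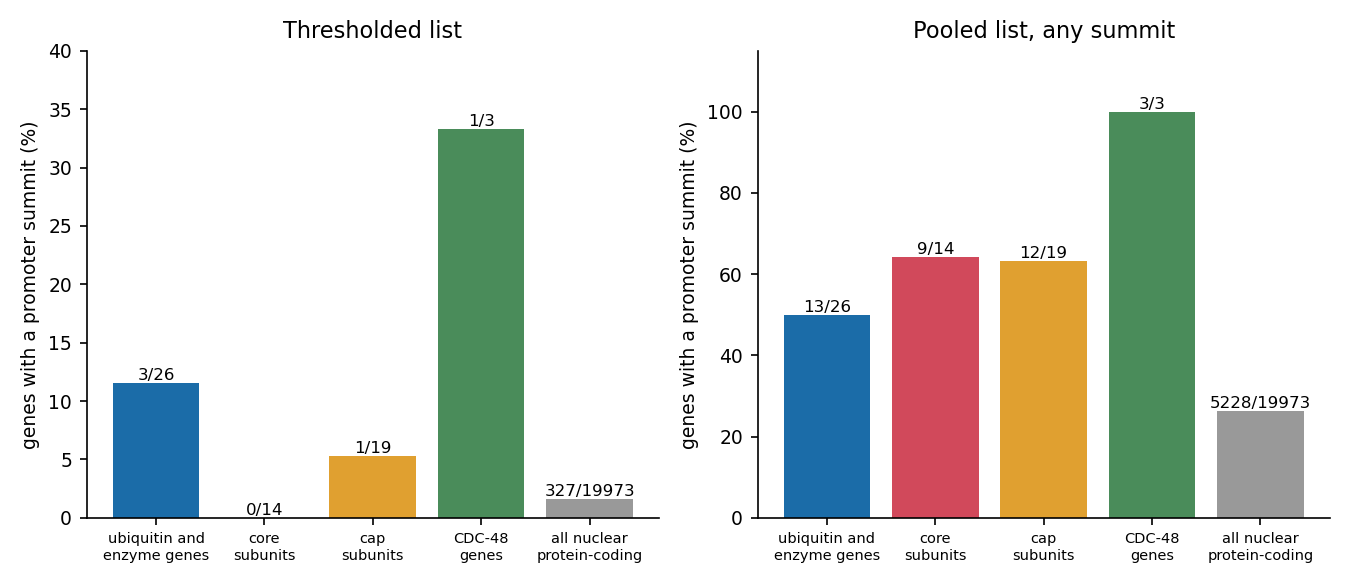
Share of the genes of each group, and of all nuclear protein-coding genes, with a promoter summit in the thresholded list (left) or in the pooled list (right), in percent, with the counts above the bars. The core subunits have none in the thresholded list (all genes 1.64%) and 9 of 14 in the pooled one (all genes 26.2%).

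A summit of the pooled list was found for 37 of the 62 genes (59.7%), beside 26.2% of all nuclear protein-coding genes. It was 13 of the 26 ubiquitin and enzyme genes (50%), 9 of the 14 core subunits (64.3%), 12 of the 19 cap subunits (63.2%) and all 3 CDC-48 genes. The pooled list holds background as well as peaks, so such a summit can be a weak one. The median rank of the 37 was 5965, and that of the 5228 genes of the genome with a summit was 10807. In the pooled list this gap depended on the window. With 200 bp before and 100 bp after the start, 18 genes had a pooled summit (29%, all genes 14.1%). Their median rank was then 9914, and that of all genes 10983. In the replicates a gap remained with the narrower window. The medians were 5097 beside 11002 for all genes in replicate 1, and 6802 beside 10172 in replicate 2. By group the pooled median rank was 4766 for the ubiquitin and enzyme genes, 6798 for the core, 7244 for the cap and 10771 for the 3 CDC-48 genes. The replicates ordered core and cap differently. The medians were 10340 for the core and 4265 for the cap in replicate 1, and 5604 and 8541 in replicate 2. No summit in any list was found for 18 genes (29%), beside 63.5% of all genes.

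With core and cap counted together, 1 of 33 proteasome genes (3.03%) had a thresholded summit and 21 (63.6%) had a pooled one. The shares of all genes were 1.64% and 26.2%. Among the ubiquitin and enzyme genes 11 of 26 (42.3%) had no summit in any list, the 4 X-linked ubc genes included. It was 3 of 14 core (21.4%) and 4 of 19 cap subunits (21.1%). All these shares were below the 63.5% of all genes.

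The replicates were set side by side by rank. Replicate 1 had a promoter summit for 37 genes and replicate 2 for 26, and 19 had one in both (30.6%), beside 13.2% of all genes. Cut to the 750 strongest peaks, each replicate held a promoter summit of 4 genes (6.45%), beside 1.59% of all genes in replicate 1 and 1.39% in replicate 2. In both it was cdc-48.1, ubc-6 and rpn-3, with ubq-2 as the fourth in replicate 1 and uba-2 in replicate 2. Thus 3 genes were among the strongest in each replicate, and the other 2 thresholded genes in 1 replicate each.

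The ranks of the 19 genes that had a summit in each replicate were related with a Spearman rho of 0.588, given as a description since the genes share 2 libraries. For 14 of the 19 the summits lay within 200 bp of each other. Of the 37 pooled summits, 17 (45.9%) had a matching summit within 200 bp in both replicates, 13 in replicate 1 only and 7 in replicate 2 only. The share in both was 46.2% over all genes with a pooled summit, almost the same.

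**Figure D3:**
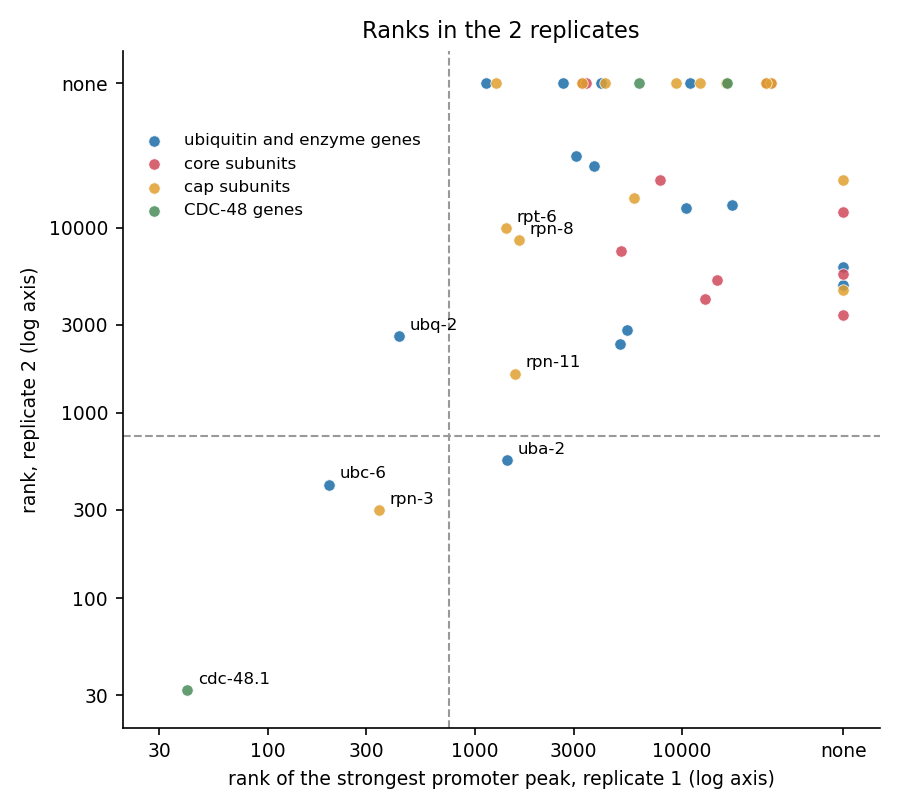
Rank of each gene's strongest promoter peak in replicate 1 (horizontal) and replicate 2 (vertical), on log axes with rank 1 the strongest, and genes without a summit in a replicate at "none". The dashed lines mark rank 750, and cdc-48.1, ubc-6 and rpn-3 lie below it in both replicates.

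The summits stood mostly upstream. Of the 37 pooled summits, 31 (83.8%) lay upstream of the start, beside 72.8% of all genes with one. The median position was -204, and -138 over all genes. It was -284 in the ubiquitin and enzyme genes, where all 13 were upstream (from -478 to -87), -102 in the core and -109.5 in the cap. The 6 summits downstream of a start were those of pas-1, pbs-4, rpn-5, rpn-10, rpt-2 and rpt-5.

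**Figure D4:**
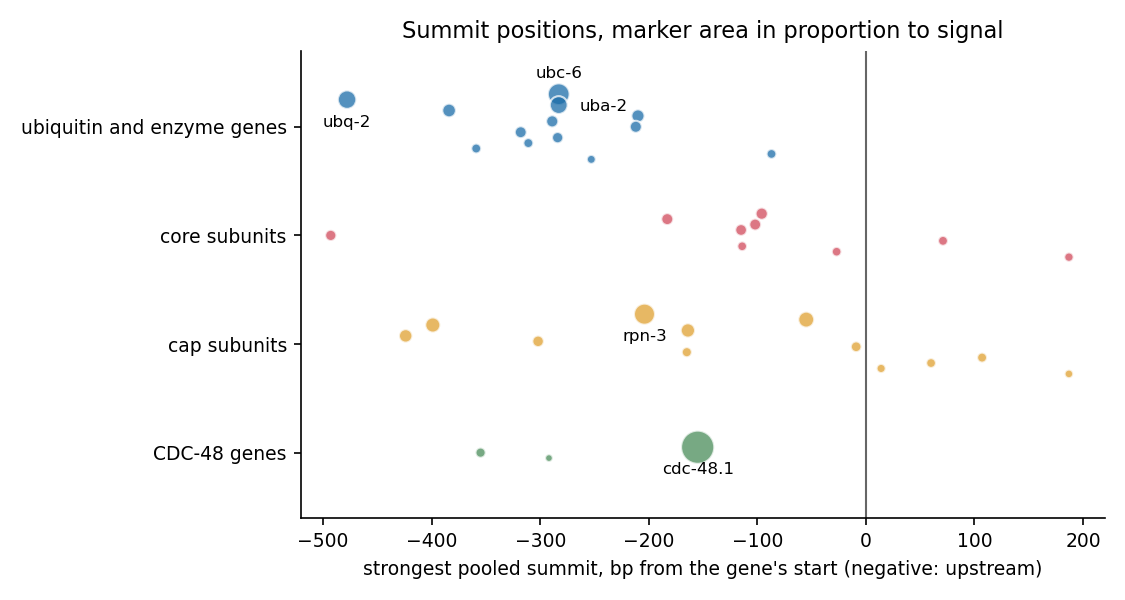
Position of the strongest pooled summit of each of the 37 genes, in bp from the gene's start (negative values are upstream), by group, with the marker area in proportion to the signal. The ubiquitin and enzyme genes lie from -478 to -87, and core and cap genes on both sides of the start.

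Many of these genes share their start region with a neighbour. A protein-coding gene began on the opposite strand within 1000 bp upstream for 33 of the 62 (53.2%), beside 17.7% of all genes. Of the 33, 4 (12.1%) had a thresholded summit, beside 3.79% of all genes with such a neighbour. Of the 29 others 1 had one, cdc-48.1 (3.45%, beside 1.17% of all genes without such a neighbour). A summit of such a pair cannot be given to 1 gene from these lists. The pooled summit also lay in another protein-coding gene's window for 17 of the 37 (45.9%, all genes 20.5%).

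One shared summit joined a pair of the same pathway. The summit of rpn-12, a lid subunit, lay in the window of rad-23 as well, whose product carries tagged proteins to the proteasome. The others include the pairs pas-4 with rpb-3, a subunit of RNA polymerase II, rpn-5 with scc-1, a cohesin subunit, and rpt-2 with aps-1, a clathrin adaptor subunit. For 8 of the 37 another gene's start was nearer to the summit.

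Some thresholded summits lay near these genes, within 3000 bp of the start and outside the window. Upstream of pas-5 were 2 summits, at -886 and -1107, with signals of 95.6 and 136.7, beside the snoRNA gene F25H2.15, and they lay downstream of the start of ubc-25. A summit at -1490 from pbs-1 (161.5) was in the window of rpi-2, and 1 at 1326 bp downstream of the start of pbs-2 (115.2) in that of tba-2, which encodes an alpha tubulin. Those near ubc-3 and ubc-7 fell in the windows of lsm-6 and rpac-19. Near rpn-8 (344.9) and rpt-1 (137.2) they stood by the snRNA genes sls-2.4 and T11F9.15. Between start and end of the gene, 0 of the 62 held a thresholded summit, beside 1.24% of all genes (247 of 19973).

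Genes of the pathway under other names were counted from 6 lists of 91 genes in all. A thresholded summit was found for 4 of them (4.4%) and a pooled one for 54 (59.3%), which can be read beside 1.64% and 26.2% of all genes. Of 12 CDC-48 partners 1 had a thresholded summit, ufd-3, whose yeast counterpart binds Cdc48, with a signal of 119.2 (rank 320, and 313 and 409 in the replicates). Of 17 other ubiquitin ligases 2 had one, eel-1 and wwp-1, which encode HECT ligases. Of the other HECT ligase genes on that list, hecd-1 had a pooled signal of 51.9 (rank 2701) and ubr-5 had no summit in any list. For eel-1 the signal was 157.7 (rank 161, and 97 and 396 in the replicates), and for wwp-1 it was 157.4 (rank 162, and 129 and 484).

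Of 13 E2 and ubiquitin-like genes under other names 1 had one, lgg-2, a gene of the Atg8 family that acts in autophagy, with a signal of 104.4 (rank 484, and 245 and 3258 in the replicates). None of the 23 cullin ligase and NEDD8 genes, of the 18 deubiquitinases or of the 8 proteasome partners and regulators had a thresholded summit. The share of all genes was 1.64%, and in lists of this size a count of 0 lies near it. Pooled summits were found for 11, 12 and 6 of them, which is 47.8%, 66.7% and 75%, beside 26.2% of all genes.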

How the data were processed

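The signals of peaks, in units of the authors' peak caller, were used as deposited in the ce11 narrowPeak lists of replicate 1, replicate 2, both pooled and the thresholded set. Per the labels the thresholded set is the optimal set of the irreproducible discovery rate procedure, and the other lists are its input. No label or file header used here names the aligner or the caller. No ce10 list was used.

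Summits were placed as the list's start plus the deposited offset, printed 1-based, and compared with the Ensembl release 115 annotation of WBcel235, whose chromosomes held all summits. A gene's start is its outermost annotated start. Ranks were taken by signal over all peaks of a list, mitochondrial ones included. A summit in the windows of several genes was counted for each. Words were counted within 50 bp of the strongest pooled summit of each gene, each summit once (4699 for all genes). The place of a summit is given against protein-coding genes. The assignment was tested on simulated data. Python 3.11.15, numpy 2.4.6, pandas 2.3.3 and matplotlib 3.10.9 were used.

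The genes and lists were chosen with earlier results of these data known. All genes with a thresholded summit were described in full, then the 5 next by signal, the strongest of each class, those with no pooled summit by name, and pathway genes with a thresholded summit. Genes named for other reasons, such as those with shared summits, were chosen after their values were seen. No test was made, since there is 1 group without a control. Alternatives were narrower and wider windows, any transcript start, the nearest gene only, other list sizes, intervals in place of summits, leaving out summits by short RNA genes and each replicate alone.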

Additional observations from a re-analysis of the deposited data

How the results depend on the processing

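Of 66 values under an alternative, 52 stayed within 1.5 times the main count or within the spread of the replicates (SD of their medians 278.2), and 14 moved. With the narrower window (200 bp upstream to 100 bp downstream) the thresholded count was 1 for all 62 genes, cdc-48.1, with 0 for the ubiquitin and enzyme genes and 0 for the cap, while the share of all genes fell to 0.781%. The median rank was then 9914 in the pooled list and 6802 in replicate 2, and in replicate 1 it stayed within the spread (5097). Counting only the nearest gene gave 3 for all genes of the set and 1 for the ubiquitin and enzyme genes, without ubq-2 and uba-2. The 375 strongest thresholded peaks also gave 3 and 1, without the same genes, and a share of all genes of 0.781%. The window from 1000 bp upstream gave the core 1, pas-5. The 1500 strongest pooled peaks gave the cap 2, with rpn-11 added, and a share of all genes of 3.06%.

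Each replicate alone gave 4 genes: without replicate 1 ubq-2 was lost, and without replicate 2 uba-2. No paired analysis was possible because there is 1 group. The depth is unknown, so a gene without a summit is not shown to be unbound, and a shared summit cannot be given to 1 gene.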
